A study of Mus musculus with 48 samples.

Results

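The glucocorticoid response was followed through 9 genes, of the 27179 Entrez gene IDs in the count table. They are the receptor gene Nr3c1 and 8 genes that glucocorticoids are known to induce in many mouse and human tissues: Fkbp5, Tsc22d3, Zbtb16, Sgk1, Klf9, Dusp1, Mt1 and Mt2. The rows were found by Entrez ID, and all 9 passed the filter on low counts. The list was chosen with measured levels of these libraries in view, and which of those levels it was selected on is not recorded, so their daily course is given as a description and nothing is supported with it.

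Glucocorticoids are adrenal steroids that enter cells freely and bind the glucocorticoid receptor, the protein made from Nr3c1. The unbound receptor is held in the cytoplasm by heat shock chaperones, and once bound it moves to the nucleus and switches genes on or off at DNA elements built of a pair of inverted arms. In nocturnal rodents the hormone rises around the start of the active, dark phase. In skin, glucocorticoids restrain inflammation and keratinocyte growth, and keratinocytes can make and inactivate the steroid themselves.

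Poly(A) RNA of epidermal cell suspensions was sequenced from mice aged 47 weeks, in 48 libraries. The genotype label was ColXIV KO or ColXIV WT, with 24 libraries each, and mice were killed at Zeitgeber time (ZT, hours on the light cycle, ZT0 being lights on) 0, 4, 8, 12, 16 or 20, giving 12 groups of 4. The labels state no strain, sex, light schedule or KO allele, and no steroid or other agent is named for any group. Each mouse gave 1 time point at most as far as the labels tell, so the daily course is one across libraries and not within an animal.

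Library totals were 35.6 to 43.7 M counts. The gene named by the label went against it: Col14a1, which encodes collagen XIV, stood at 61.3 ± 8.41 CPM (counts per M counts of the library after TMM scaling, mean ± SD, n = 24) in the libraries labelled KO and at 1.23 ± 0.939 CPM in those labelled WT. The groups are therefore named by their labels throughout, and no direction below is a direction of loss of collagen XIV. In addition, 3 libraries (replicates 3 and 4 of the WT label at ZT4, replicate 2 at ZT16) held over 1 CPM of Gm5481, a predicted gene that was above 1 CPM in 24 of 24 libraries labelled KO and in no other library labelled WT. Leaving those 3 out changed none of the counts of called members given below. Keratinocyte markers summed to 31060 to 48260 CPM, with 8 of 8 above 1 CPM, while fibroblast and dermis markers summed to 2.87 to 311 CPM, so the labelled tissue carried its defining genes. Libraries also fell into those expressing Xist (15 labelled WT and 9 labelled KO) and those expressing Y-linked genes (9 and 15). In bulk libraries, fewer cells of a type and less RNA per cell cannot be told apart.

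The receptor gene was the steadiest of the 9. Nr3c1 lay on chromosome 18 (39410545 to 39519421, minus strand, GRCm38) and ran from 139 to 176 CPM over all 48 libraries, with a mean of 154 ± 9.84 CPM and a coefficient of variation of 6.39%. Its highest group mean was 167 ± 6.71 CPM in the KO label at ZT8 and its lowest 147 ± 5.56 CPM in the KO label at ZT20, and those 2 groups did not overlap (159.6 to 175.7 against 141.6 to 153.0 CPM). Each of the 10 other groups overlapped at least one of them. These 2 groups were picked as those of the highest and lowest means, so nothing is read from their separation. The share of all genes that separate such groups was not computed. A difference of Nr3c1 between times was not called (edgeR adjusted p = 0.223, and 0.274 in the KO label alone).

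The 8 induced genes spanned a wide range of abundance. Lengths were all annotated exon bases of a gene (1246 for Mt1, 588 for Mt2), whichever transcripts were present, so values per kb rest on that choice. Per kilobase of annotated exon, the mean levels in descending order were 418 CPM per kb for Mt2, 380 for Dusp1, 106 for Mt1, 31.8 for Tsc22d3, 21.1 for Sgk1, 17.1 for Zbtb16, 13.9 for Klf9 and 4.55 for Fkbp5, with Nr3c1 at 20.1 between Sgk1 and Zbtb16. On that scale the library ranges of Mt2 (256 to 830) and Dusp1 (131 to 647) overlapped, as did those of Dusp1 and Mt1 (64.1 to 184), of Mt1 and Tsc22d3 (11.9 to 80.2), and of Tsc22d3, Sgk1 (15.3 to 26.7), Nr3c1 (18.1 to 22.9), Zbtb16 (5.60 to 45.9) and Klf9 (8.46 to 30.3), and Fkbp5 (1.26 to 12.0) overlapped Klf9, Zbtb16 and Tsc22d3. Coefficients of variation over the 48 libraries went from 13.6% for Sgk1 to 66.0% for Fkbp5.

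**Figure D1:**
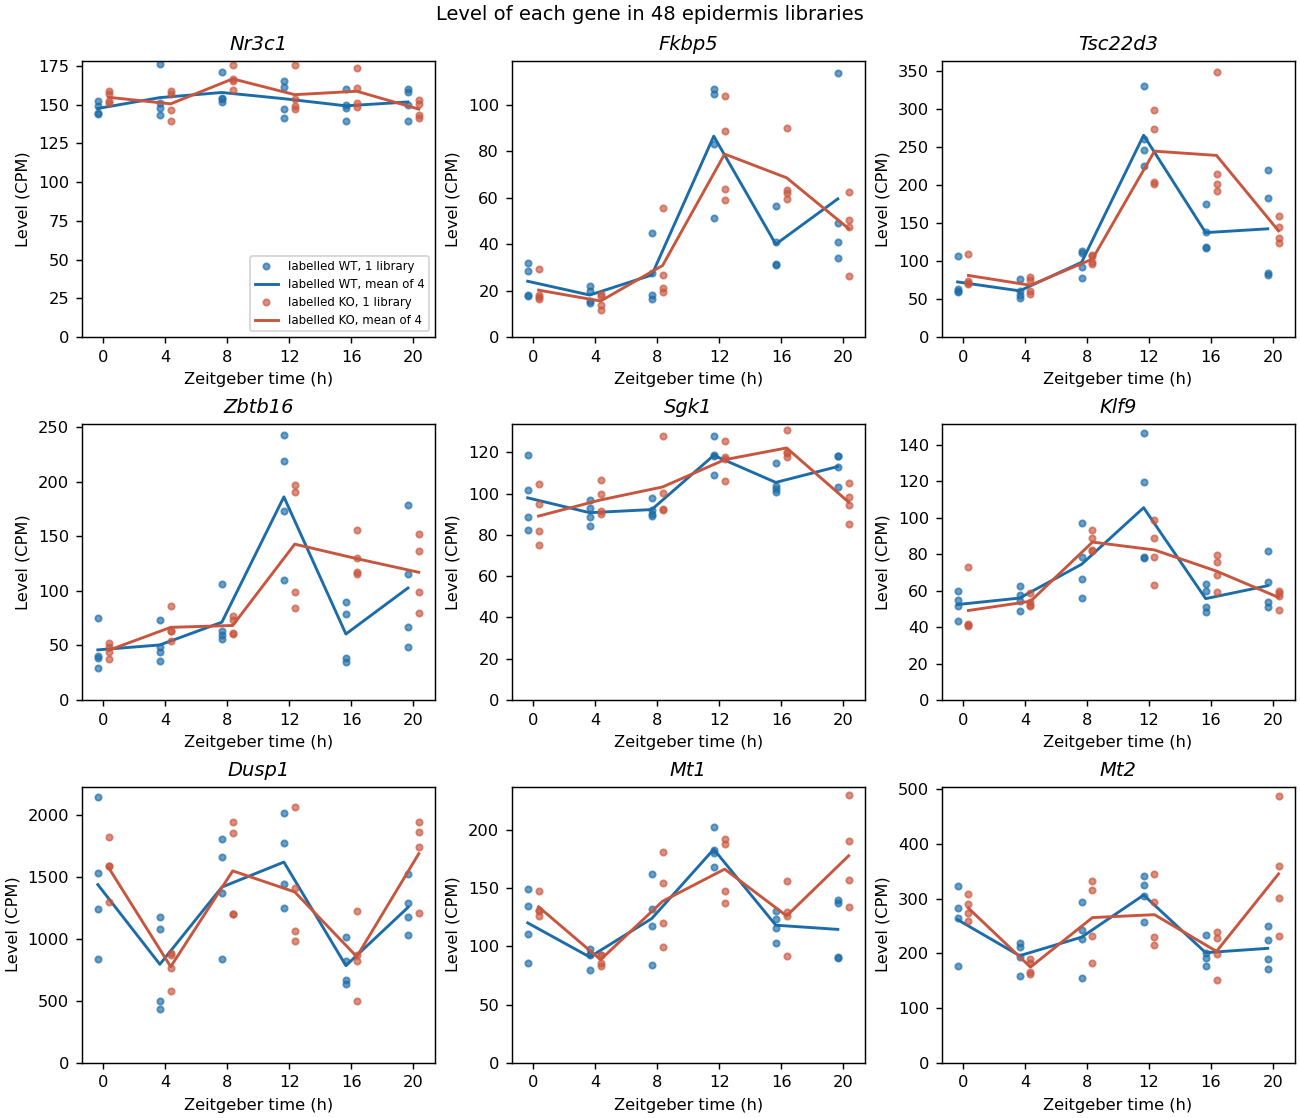
Level in CPM (linear axes from 0) against Zeitgeber time for the 9 genes; each point is 1 library and each line joins the means of 4 libraries of one label. Fkbp5, Tsc22d3 and Zbtb16 are low at ZT0 and ZT4 and high at ZT12, Nr3c1 stays between 139 and 176 CPM, and Dusp1 dips at both ZT4 and ZT16.

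Fkbp5, Tsc22d3 and Zbtb16 had their highest group mean at ZT12 in both labels. Fkbp5, on chromosome 17 (28398753 to 28486149, minus strand), encodes FKBP51, a co-chaperone that lowers the receptor's affinity for hormone and so closes a negative feedback loop. In the WT label its 4 libraries held 15.0, 15.6, 20.0 and 22.2 CPM at ZT4 and 51.4, 83.2, 105 and 107 CPM at ZT12. In the KO label they held 11.9, 13.9, 17.8 and 18.8 CPM at ZT4 and 59.3, 63.8, 88.7 and 104 CPM at ZT12. The ZT4 and ZT12 libraries did not overlap in either label. These were the times of its lowest and highest group means, and the share of all genes that separate them was not computed. The ratio of the highest to the lowest group mean was 4.76 in the WT label and 5.05 in the KO label.

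Tsc22d3, on the X chromosome (140539528 to 140600522, minus strand), encodes GILZ, a leucine zipper protein that restrains NF-kappaB and AP-1. Its WT-label libraries held 51.5, 55.1, 61.2 and 76.5 CPM at ZT4 and 225, 247, 260 and 331 CPM at ZT12. The KO-label libraries held 57.5, 61.4, 75.5 and 79.3 CPM at ZT4 and 202, 205, 273 and 299 CPM at ZT12. Every ZT12 library was above every ZT4 library of both labels. Here too the times were picked as those of the lowest and highest group means, with no share of all genes computed. At ZT20 the WT label split into libraries of 82.0 and 85.1 CPM and of 183 and 220 CPM, all 4 of them expressing Xist, whereas the KO label held 124 to 160 CPM.

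Zbtb16, on chromosome 9 (48651797 to 48836225, minus strand), encodes the zinc finger transcriptional repressor PLZF. It averaged 45.9 ± 20.1 CPM at ZT0 and 186 ± 58.4 CPM at ZT12 in the WT label, and 45.6 ± 6.56 and 143 ± 59.2 CPM in the KO label. The 4 libraries of a group spread more widely than for Tsc22d3, from 110 to 242 CPM in the WT label and from 84.5 to 197 CPM in the KO label at ZT12.

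After ZT12 the means of these 3 genes did not fall in order of time in the WT label. The WT-label means at ZT12, ZT16 and ZT20 were 86.6, 40.1 and 59.6 CPM for Fkbp5, 266, 138 and 143 CPM for Tsc22d3 and 186, 60.5 and 103 CPM for Zbtb16, lowest of the 3 times at ZT16. In the KO label they fell in order of time, with 78.9, 68.7 and 46.8 CPM for Fkbp5, 245, 239 and 139.9 CPM for Tsc22d3 and 143, 129 and 117 CPM for Zbtb16. Libraries within a group spread widely, from 34.3 to 114 CPM for Fkbp5 at ZT20 in the WT label. The step from ZT16 to ZT20 was not tested. A change of the label difference over time was not called for these genes (edgeR adjusted p = 0.841 to 0.921). In the WT label 4 of 4 libraries at ZT20 expressed Xist, against 2 of 4 at ZT16.

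Klf9 and Sgk1 varied in smaller steps. Klf9, on chromosome 19 (23141226 to 23168129, plus strand), encodes a Krüppel-like transcription factor that is induced by glucocorticoids and slows keratinocyte proliferation. Its WT-label mean was lowest at ZT0 (52.3 ± 7.03 CPM) and highest at ZT12 (105 ± 33.4 CPM), and its KO-label mean was lowest at ZT0 (49.1 ± 15.8 CPM) and highest at ZT8 (86.5 ± 5.71 CPM). At ZT12 in the WT label the 2 libraries expressing Xist held 146 and 119 CPM and the 2 expressing Y-linked genes 78.5 and 77.6 CPM.

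Sgk1, on chromosome 10 (21882184 to 21999903, plus strand), encodes a serine/threonine kinase that controls ion channels and transporters. It ran from 75.2 to 131 CPM over all libraries, with ratios of the highest to the lowest group mean of 1.31 in the WT label (ZT12 over ZT4) and 1.37 in the KO label (ZT16 over ZT0). One of its 6 RefSeq promoter windows holds both inverted arms of a glucocorticoid response element, AGAACA and TGTTCT separated by 3 bases, which 3 of 32851 mouse promoter windows of the same length hold (0.00913%). It is shown because it was the only match to the full element among 14 windows of 7 members, in which Nr3c1 was not included. The window is chr10:21993640-21993939, plus strand, GRCm38.p6, from 250 bases before the start to 50 after; capitals mark the full element, which begins 189 bases before the start, and near the 5′ end an E-box CACGTG overlapped by one further arm.
Sgk1: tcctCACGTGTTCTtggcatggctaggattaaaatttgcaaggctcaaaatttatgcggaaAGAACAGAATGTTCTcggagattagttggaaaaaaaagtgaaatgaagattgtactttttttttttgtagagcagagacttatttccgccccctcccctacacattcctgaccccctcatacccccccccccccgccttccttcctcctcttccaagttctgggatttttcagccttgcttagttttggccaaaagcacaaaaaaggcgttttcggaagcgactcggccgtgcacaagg
A single arm AGAACA on either strand was present in 4 of the 14 windows and in 19.0% of all windows. These are matches of letters, not sites of binding, and the elements of this family that lie far from a start are outside these windows.

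Dusp1 followed another course, with dips at ZT4 and ZT16. It lies on chromosome 17 (26505591 to 26508472, minus strand) and encodes a phosphatase that switches off the p38 and JNK kinases. It is induced by glucocorticoids and, as an immediate early gene, by growth factors and stress. In the WT label it averaged 794 ± 384 CPM at ZT4 and 783 ± 172 CPM at ZT16. The WT-label means of the other times were 1437 ± 551 (ZT0), 1417 ± 429 (ZT8), 1619 ± 341 (ZT12) and 1253 ± 208 CPM (ZT20). In the KO label the dips were at 775 ± 140 and 856 ± 298 CPM, and the other means, in order of time, were 1573 ± 213, 1548 ± 403, 1378 ± 492 and 1687 ± 329 CPM. The promoter window of Dusp1 holds a cAMP response element TGACGTCA, found in 1.79% of all windows and in 1 of the members' 14, and an E-box CACGTG, found in 7.15% of all windows and in 3 of the 14. It is printed to set the E-box, which the clock factors CLOCK and BMAL1 are known to bind, beside the element through which cAMP and stress signals act. The window is chr17:26508423-26508722, minus strand, GRCm38.p6, written in the direction of transcription, with both elements in capitals.
Dusp1: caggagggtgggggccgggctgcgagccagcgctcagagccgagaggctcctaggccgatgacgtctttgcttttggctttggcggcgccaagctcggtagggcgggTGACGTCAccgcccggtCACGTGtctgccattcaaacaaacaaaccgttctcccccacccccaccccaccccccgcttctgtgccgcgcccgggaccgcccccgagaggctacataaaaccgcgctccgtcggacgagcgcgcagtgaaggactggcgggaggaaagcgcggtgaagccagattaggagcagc
No AGAACA arm is in this window, which says only that these letters are not there.

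Mt1 and Mt2 are neighbours on chromosome 8 (94178883 to 94180327 and 94172618 to 94173567, both on the plus strand) and encode metallothioneins, small cysteine-rich proteins that bind zinc and copper. Both are induced by metals and by glucocorticoids. Mt1 was lowest at ZT4 (90.9 ± 7.75 CPM in the WT label, 88.5 ± 5.05 in the KO label) and highest at ZT12 in the WT label (184 ± 14.3 CPM) and at ZT20 in the KO label (178 ± 41.8 CPM). Mt2 had its lowest and highest means at the same times, from 196 ± 27.1 to 307 ± 36.5 CPM in the WT label and from 175 ± 13.1 to 345 ± 109 CPM in the KO label. The promoter windows of the 2 genes are printed because among libraries of the same group their levels moved together more closely than those of any other pair of members. Capitals mark the core of the metal response element, TGCACNC or TGCGCNC on either strand, with 4 matches in Mt2 and 3 in Mt1; 25.7% of all windows hold at least 1. They are chr8:94172368-94172667 and chr8:94178839-94179138, plus strand, GRCm38.p6.
Mt2: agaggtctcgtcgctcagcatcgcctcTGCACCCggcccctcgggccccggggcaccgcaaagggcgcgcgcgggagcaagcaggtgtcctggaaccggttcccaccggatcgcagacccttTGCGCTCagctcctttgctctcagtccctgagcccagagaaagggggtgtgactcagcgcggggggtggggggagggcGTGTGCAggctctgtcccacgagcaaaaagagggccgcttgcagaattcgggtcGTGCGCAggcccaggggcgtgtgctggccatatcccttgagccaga
Mt1: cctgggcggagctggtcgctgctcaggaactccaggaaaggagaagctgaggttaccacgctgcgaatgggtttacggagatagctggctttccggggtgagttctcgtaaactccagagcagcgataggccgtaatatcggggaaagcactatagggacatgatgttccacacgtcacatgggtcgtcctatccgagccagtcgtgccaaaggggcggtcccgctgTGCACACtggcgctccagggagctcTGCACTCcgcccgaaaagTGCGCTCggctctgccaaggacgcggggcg
The Mt2 transcript is 100% identical over 212 bases to Gm45774, an annotated gene on the other strand. The library kit keeps strand, but whether the counting used it is not stated, so its reads may be among those of Mt2.

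The shape of the daily course was put into numbers with a wave of 24 h fitted within each label, whose amplitude is the log2 distance from mean to peak. Fkbp5 had an amplitude of 1.00 ± 0.12 (jackknife SE over libraries) in the WT label, peaking at ZT15.2 ± 0.791 h, and 1.21 ± 0.09 in the KO label, peaking at ZT14.7 ± 0.446 h. These amplitudes correspond to fitted peak-to-trough ratios of 3.99 and 5.36. Tsc22d3 had amplitudes of 0.93 ± 0.08 and 1.00 ± 0.08 with peaks at ZT14.3 and ZT14.7. Zbtb16 had amplitudes of 0.78 ± 0.14 and 0.75 ± 0.09 with peaks at ZT13.7 and ZT14.8. Klf9 peaked earlier, at ZT11.4 and ZT11.3 (WT and KO label), with amplitudes of 0.40 ± 0.09 and 0.42 ± 0.08, and Sgk1 had the smallest of these waves, 0.17 ± 0.03 with a peak at ZT16.1 and 0.21 ± 0.04 with a peak at ZT13.2. By edgeR's quasi-likelihood test with Benjamini-Hochberg adjustment over 17068 genes, these 5 of the 9 had a 24 h wave in the WT label (11.6% of all genes were called) and the same 5 in the KO label (12.2%). The level differed between the 6 times for 8 of the 9, all but Nr3c1, where 45.0% of all genes were called, and for the same number in the WT label alone (28.6%) and in the KO label alone (15.8%). Because the list may have been drawn up from this course, nothing is read from these counts.

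For comparison of peak times only, Per2, a clock gene with a glucocorticoid response element described in mice, peaked at ZT14.0 (WT label) and ZT13.8 (KO label) in the same fit, Dbp at ZT10.7 and ZT10.9, and Arntl, which encodes BMAL1, at ZT23.7 and ZT23.6. Fkbp5, Tsc22d3 and Zbtb16 thus peaked nearer to Per2, and Klf9 nearer to Dbp. All 13 clock genes listed had a called 24 h wave in both labels.

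Terms of 12 h were added beside the 24 h wave after the dips at ZT4 and ZT16 had been seen in the same libraries, so, as above, the values are a description from which nothing is read. They were called for 3 of the 9, Dusp1, Mt1 and Mt2, and for 19.2% of all genes. Their 12 h amplitudes were 0.58 and 0.62 for Dusp1 (WT and KO label), 0.30 and 0.36 for Mt1, and 0.31 and 0.42 for Mt2, with 12 h peaks between ZT9.65 and ZT11.5 and again 12 h later. The 6 other members, Fkbp5 (amplitudes 0.46 and 0.18) among them, were not called. The summed level of 8 immediate early genes (Fos, Fosb, Jun, Junb, Egr1, Atf3, Ier2 and Ier3) dipped at the same times, averaging 8172 CPM at ZT4 and 7743 CPM at ZT16 in the WT label against 13160 to 17310 CPM at the other 4 times, and 9076 and 8826 CPM against 14150 to 16740 CPM in the KO label. Its part in the course of Dusp1, Mt1 and Mt2 was not tested.

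**Figure D2:**
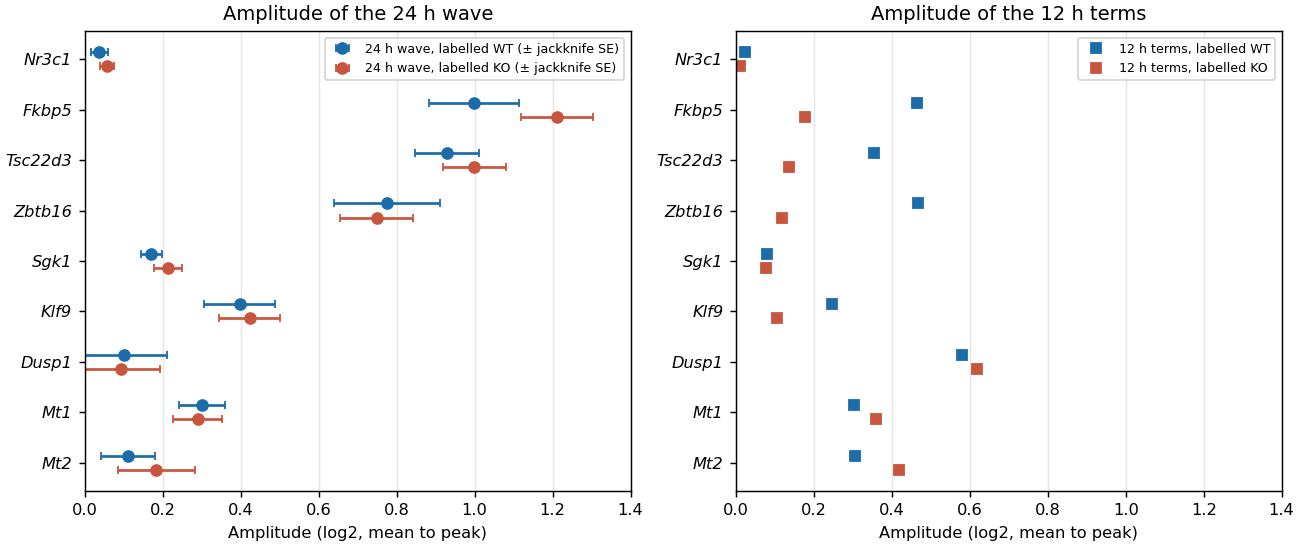
Amplitude (log2, mean to peak) of the 24 h wave with its jackknife SE (left) and of the 12 h terms fitted beside it (right) for each gene and label. Fkbp5, Tsc22d3 and Zbtb16 have the largest 24 h amplitudes of the 9 genes (0.75 to 1.21), and Dusp1 the largest 12 h amplitudes (0.58 and 0.62).

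Likeness of pattern was measured by Pearson's r across the 12 group means, as a description of points that share libraries of the same time and label. The closest genes were sought among genes of at least 1 CPM with a symbol, leaving out those named Gm with a number or ending in Rik. Fkbp5 and Tsc22d3 were each other's closest gene (r = 0.97; 0.877 over the 48 libraries), followed by Adarb1, an RNA editing enzyme, for Fkbp5 (0.963) and by Angptl7, a secreted angiopoietin-like protein, for Tsc22d3 (0.967). Zbtb16 was most like Kank1 (0.931) and Mnt (0.922), Sgk1 like Hpgd (0.944) and Rnf122 (0.933), and Klf9 like Bmpr1b (0.942) and Siah1a (0.94). Dusp1 was most like Fos (0.993; 0.986 over the 48 libraries) and the small nucleolar RNA gene Snora31 (0.991). Mt1 was most like Paxip1 (0.963) and Rasd1 (0.954), the latter itself a gene first known as induced by dexamethasone, and Mt2 like Snora33 (0.954) and Snhg1 (0.945). For Nr3c1 the closest genes were less alike, Arsg at 0.86 and Ggnbp2 at 0.823. Among the members themselves, Fkbp5, Tsc22d3, Zbtb16 and Sgk1 were alike at r = 0.776 to 0.97, and Dusp1, Mt1 and Mt2 at 0.753 to 0.888, while Sgk1 and Dusp1 were at -0.043. The 2 sets were not separate: Mt1 was at 0.703 with Fkbp5, 0.723 with Tsc22d3 and 0.664 with Zbtb16, near its 0.753 with Dusp1.

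The main comparison of the study, KO label against WT label, found no member called. Averaged over the 6 times, 0 of 9 members differed at an adjusted p under 0.05 by edgeR (58 of 17068 genes, 0.340%, were called), and 0 had an unadjusted p under 0.05 (6.90% of all genes had); DESeq2 and limma-voom also called 0. The log2 fold changes, KO over WT label, were between -0.01 ± 0.07 (SE) for Klf9 and 0.21 ± 0.14 for Zbtb16, with Nr3c1 at 0.03 ± 0.03, Mt1 at 0.15 ± 0.08 and Tsc22d3 at 0.17 ± 0.10. The adjusted p-values were 0.738 to 0.999. The difference between labels did not differ between times for any member at the threshold (0 of 9 called, 0 genes in all, 0% called), with unadjusted p under 0.05 for 2, Sgk1 and Mt2, and for 6.10% of all genes. The 24 h waves of the 2 labels did not differ for any member either (0 of 9; 0% of all genes), and none had an unadjusted p under 0.05.

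At single times, 0 of 54 comparisons were called, where the shares of all genes called were 0.0527% at each of ZT0 and ZT4, 0.0762% and 0.0234% at the next 2 times (ZT8, ZT12), 0.129% at ZT16 and 0.0586% at ZT20. Before adjustment 7 of the 54 had a p under 0.05, 4 of them at ZT16, where 9.63% of all genes had, and 3 at ZT20, where 8.29% had.

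At ZT16 Fkbp5, Tsc22d3 and Zbtb16 stood higher in the libraries labelled KO, though none passed adjustment. Fkbp5 was at 59.4, 62.0, 63.2 and 90.0 CPM in the KO label and at 31.2, 31.6, 40.8 and 56.6 CPM in the WT label. Tsc22d3 was at 192, 202, 214 and 348 CPM against 117, 119, 139 and 176 CPM. Zbtb16 was at 116, 117, 130 and 156 CPM against 34.8, 38.5, 79.2 and 89.3 CPM. The type of library was uneven here as well, with 2 of 4 libraries labelled WT and 1 of 4 labelled KO expressing Xist. For Zbtb16 the 2 WT-label libraries with Xist were those at 79.2 and 89.3 CPM. The 1 KO-label library with Xist, at 116 CPM, was the lowest of its group. In these genes and in Sgk1 (118 to 131 against 101 to 115 CPM), every library labelled KO was above every library labelled WT. That is 4 of 9 members where 1.97% of all genes showed this, and none was the other way round (1.34%). Which levels the list was selected on is not recorded, so nothing is read from this count. At the other 5 times no member separated the labels in either direction. The shares of all genes that did, with the KO label above and below in turn, were 3.34% and 2.66% at ZT20, 1.63% and 1.73% at ZT12, 1.73% and 1.93% at ZT8, 1.46% and 1.56% at ZT4, and 0.586% and 0.768% at ZT0. Among libraries of the same group Fkbp5, Tsc22d3 and Zbtb16 vary together (r = 0.47 to 0.571), so the 4 genes at ZT16 are not 4 separate observations. Sgk1 did not follow them there (r = -0.04 with Fkbp5, 0.051 with Tsc22d3 and -0.018 with Zbtb16). The log2 fold changes were 0.80 ± 0.24 for Tsc22d3 (edgeR adjusted p = 0.26), 1.10 ± 0.35 for Zbtb16 (adjusted p = 0.306), 0.78 ± 0.35 for Fkbp5 (adjusted p = 0.470) and 0.21 ± 0.10 for Sgk1 (adjusted p = 0.468), so none was called. Without the 3 libraries labelled WT that held Gm5481, 1 of which is in this group, the values were 0.73 for Tsc22d3, 0.91 for Zbtb16, 0.67 for Fkbp5 and 0.20 for Sgk1. The sum of fibroblast and dermis markers was 4.82 to 311 CPM in the WT label and 8.61 to 59.8 CPM in the KO label at this time. The mean log2 CPM of these marker genes, not their sum, was used as a covariate. With it the log2 fold changes were 0.80 ± 0.24 for Tsc22d3, 1.10 ± 0.35 for Zbtb16, 0.78 ± 0.35 for Fkbp5 and 0.21 ± 0.10 for Sgk1.

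At ZT20 the metallothionein genes stood higher in the KO label. Mt2 was at 232, 302, 359 and 488 CPM in the KO label and at 172, 190, 225 and 250 CPM in the WT label, and Mt1 at 134, 157, 191 and 230 CPM against 90.2, 91.1, 137 and 140 CPM. The labels overlapped in both genes through the lowest KO-label library. The log2 fold changes were 0.72 ± 0.20 for Mt2 (edgeR adjusted p = 0.41) and 0.64 ± 0.19 for Mt1 (adjusted p = 0.44). The type of library was unevenly spread at this time: 4 of 4 libraries labelled WT expressed Xist against 1 of 4 labelled KO, and that 1 was the lowest of its group for both genes. With terms for Xist and Y-linked expression in the fit, the log2 fold changes were 0.47 ± 0.17 for Mt2 and 0.44 ± 0.17 for Mt1. Marker lists differed at this time as well. Fibroblast and dermis genes summed to 9.93 to 104 CPM in the KO label and to 4.01 to 10.2 CPM in the WT label, sebaceous gland genes to 623 to 1207 against 1065 to 1679 CPM, keratinocyte genes to 37300 to 43740 against 32460 to 37930 CPM, and immediate early genes to 12640 to 19400 against 11400 to 14730 CPM. Erythrocyte genes summed to 47.1 to 55.2 against 28.3 to 44.4 CPM, without overlap, and Langerhans and dendritic cell genes to 224 to 334 against 309.9 to 414 CPM. With the mean log2 CPM of the fibroblast and dermis genes as a covariate the log2 fold changes were 0.58 ± 0.20 for Mt2 and 0.51 ± 0.19 for Mt1. The part of the other lists was not tested. Sgk1 went the other way at ZT20, at -0.24 ± 0.10 (adjusted p = 0.585).

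**Figure D3:**
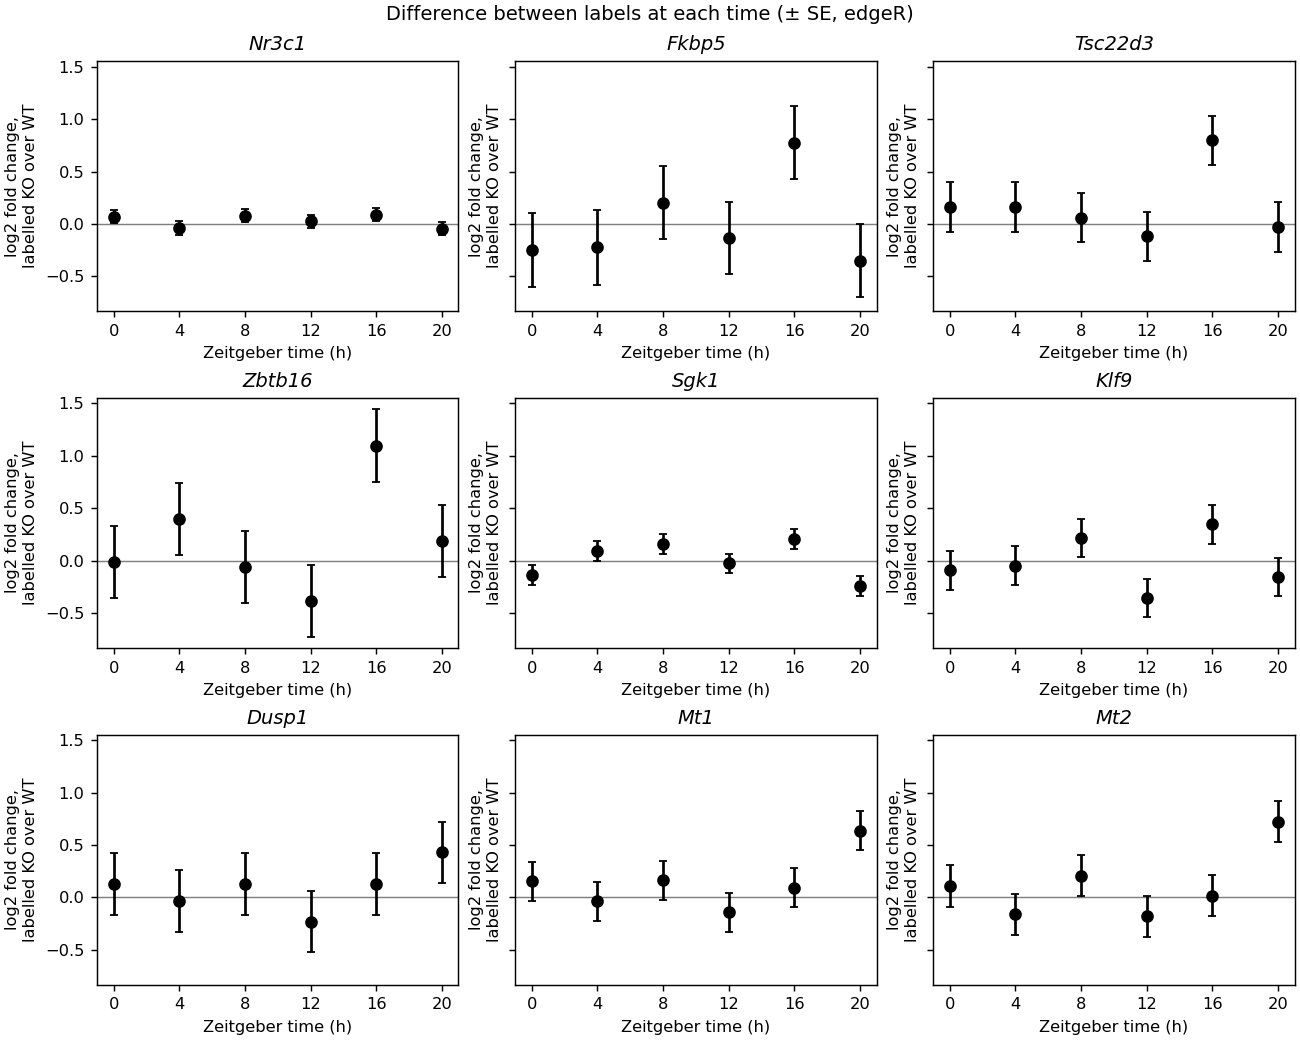
Log2 fold change of the KO over the WT label at each Zeitgeber time with its SE from edgeR, 1 panel per gene on a common axis; the grey line marks no difference. The points that lie farthest from 0 are Zbtb16 (1.10), Tsc22d3 (0.80) and Fkbp5 (0.78) at ZT16 and Mt2 (0.72) at ZT20, none of them called.

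Dusp1 and the metallothionein genes differed between libraries of the 2 types within groups, a comparison added after the data were seen. The sex of the mice is not in the labels; 24 libraries expressed Xist and 24 Y-linked genes, and 11 of the 12 groups held both types. Dusp1 averaged 1049 ± 345 CPM in the libraries with Xist (lowest 432, median 1185, highest 1533) and 1471 ± 476 CPM in those with Y-linked genes (lowest 763, median 1625, highest 2143). At ZT4 in the WT label, for example, the 2 libraries with Xist held 496 and 432 CPM and the other 2 1172 and 1076 CPM. The mean was lower in the libraries with Xist in 11 of 11 groups, with a log2 difference of -0.70 ± 0.07 within groups (edgeR adjusted p = 1.0e-09). Mt2 differed by -0.33 ± 0.07 (adjusted p = 0.00069; lower in 10 of 11 groups) and Mt1 by -0.26 ± 0.08 (adjusted p = 0.0056; lower in 9 of 11). Klf9 was higher in the libraries with Xist, by 0.24 ± 0.07 (adjusted p = 0.0097), in 7 of 11 groups. The other 5 members were not called, at -0.07 (Sgk1) to 0.26 (Fkbp5). These are 4 of 9 members called where 37.7% of all genes were, so the share is near that of all genes.

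Within the labels taken alone, Dusp1 was called in both (-0.74 in the WT label, -0.66 in the KO label). Mt1, Mt2 and Klf9 were called in the KO label, at -0.33, -0.39 and 0.26. They were not called in the WT label, where their differences were -0.20, -0.27 and 0.23. Whether the labels differ in this was not tested, and all WT-label libraries at ZT20 expressed Xist. All 8 immediate early genes were also lower in the libraries with Xist (median log2 difference -0.58, Fos at -0.73 ± 0.08), their sum running from 4850 to 17350 CPM there and from 8058 to 21050 CPM in the others. Of the marker lists, 7 of 7 fibroblast and dermis genes were lower in the libraries with Xist (sum 2.87 to 12.8 CPM against 6.36 to 311 CPM), as were 5 of 8 keratinocyte genes (31060 to 39970 against 35720 to 48260 CPM). The 5 sebaceous gland genes, 5 of 5, were higher there (716 to 1819 against 473 to 930 CPM), and no gene of these 3 lists was at 0 in every library. T cell genes were higher there too (3 of 5 called; mean sum 63.2 against 46.6 CPM, with ranges that overlap), as were Langerhans and dendritic cell genes (3 of 5; 309.9 to 547 against 218 to 415 CPM). Of 4 macrophage genes 2 were higher and 1 lower, and of 4 erythrocyte genes 2 were lower (26.8 to 56.6 against 35.6 to 62.8 CPM). The part of these lists in the differences of the members was not tested.

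**Figure D4:**
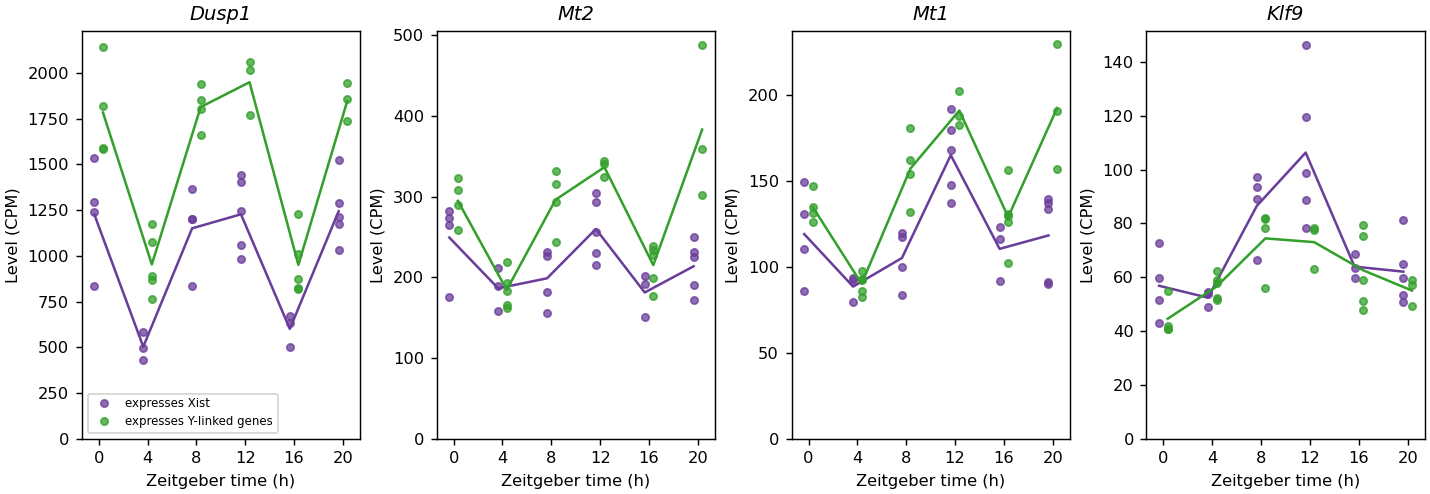
Level in CPM (linear axes from 0) of Dusp1, Mt2, Mt1 and Klf9 against Zeitgeber time, with libraries coloured by whether they express Xist or Y-linked genes; each point is 1 library, from either label, and lines join the means of each type. Dusp1 averages 1049 CPM in the libraries with Xist and 1471 CPM in the others, and its dips at ZT4 and ZT16 appear in both.

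Members also varied together among libraries of the same group, which no contrast of time or label uses. Deviations of log2 CPM from the group means were compared for the 36 pairs over 48 libraries, with a permutation test within groups of 100000 resamples and Benjamini-Hochberg adjustment over the 36. Of these, 9 pairs passed by Pearson's r, all with a positive r, and 7 by Spearman's rho, which lost Fkbp5 with Tsc22d3 (rho = 0.398, adjusted permutation p = 0.0594) and Tsc22d3 with Mt1 (rho = 0.397, adjusted permutation p = 0.0839). Mt1 and Mt2 had r = 0.928 (rho = 0.918; permutation p = 1e-05, the smallest the test can give, adjusted 0.00018; r = 0.912 without the 2 libraries farthest from the median). Dusp1 followed Mt2 (r = 0.692, rho = 0.667, adjusted permutation p = 0.00018; 0.65 without the 2 farthest) and Mt1 (r = 0.591, rho = 0.567, adjusted permutation p = 0.00126; 0.543).

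Other pairs joined Fkbp5, Tsc22d3, Zbtb16 and Klf9. Tsc22d3 followed Klf9 (r = 0.654, rho = 0.702, adjusted permutation p = 0.00024; 0.616 without the 2 farthest) and Zbtb16 (r = 0.571, rho = 0.512, adjusted permutation p = 0.015; 0.456), and Fkbp5 followed Zbtb16 (r = 0.555, rho = 0.597, adjusted permutation p = 0.00432; 0.548). The remaining pairs that passed by r were Tsc22d3 with Mt1 (0.491), Fkbp5 with Tsc22d3 (0.47) and Zbtb16 with Mt1 (0.459). Tsc22d3 and Dusp1 had an r of 0.00, and the r of Nr3c1 with the 8 other members was between -0.235 and 0.161, none of which passed. Without replicate 4 of the WT label at ZT0, which held 107 CPM of Tsc22d3 against 59.9 to 63.9 CPM in its group, 5 pairs passed. Within the libraries with Xist alone 1 pair passed (Mt1 with Mt2, r = 0.915, n = 20), and within those with Y-linked genes 0 did (r = 0.843 for that pair, n = 22). Each type alone leaves fewer libraries. In the same order of types, r was 0.778 and 0.472 for Tsc22d3 with Klf9. It was 0.819 and 0.379 for Tsc22d3 with Zbtb16, and 0.668 and 0.444 for Fkbp5 with Zbtb16. Nr3c1 and Dusp1 had an r of 0.883 within the libraries with Y-linked genes (adjusted permutation p = 0.0684) and of 0.17 within those with Xist.

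Dusp1, Mt1 and Mt2 all differ between the 2 types in the same direction, so their pairs are also given by type. With Mt1 the r of Dusp1 was 0.525 within the libraries with Xist and 0.05 within those with Y-linked genes, and with Mt2 it was 0.626 and 0.358. With deviations taken from the means of group and type (42 libraries in sets of at least 2), r stayed positive and neither pair passed: it was 0.398 for Dusp1 with Mt1 (adjusted permutation p = 0.236) and 0.543 with Mt2 (adjusted permutation p = 0.0638). This leaves fewer libraries and takes out more means, and the part of type was not tested further. In that comparison 12 pairs passed. They were the 7 others named above and 5 more, Klf9 with Mt1 (r = 0.727) and with Mt2 (0.691), Zbtb16 with Klf9 (0.616) and with Mt2 (0.497), and Tsc22d3 with Mt2 (0.506).

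**Figure D5:**
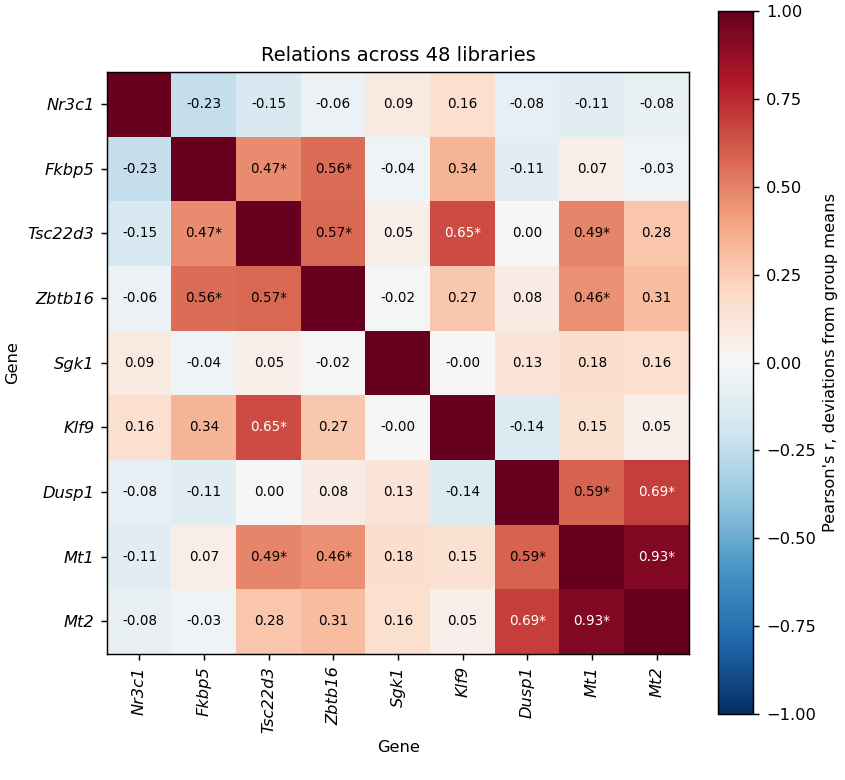
Pearson's r of deviations from the group means of log2 CPM for each pair of genes over 48 libraries, from -1 (blue) to 1 (red); a star marks an adjusted permutation p under 0.05. With both types of library pooled, Dusp1, Mt1 and Mt2 are related at 0.59 to 0.93, Fkbp5, Tsc22d3 and Zbtb16 at 0.47 to 0.57 and Tsc22d3 with Klf9 at 0.65, Mt1 joins the sets through Tsc22d3 (0.49) and Zbtb16 (0.46), and the row of Nr3c1 is pale; the pairs of Dusp1 did not pass with deviations taken from group and type.

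Of the rest of the pathway, 20 of 25 listed genes of the receptor machinery and steroid metabolism passed the low-count filter. The level differed between times for 10 of the 20, where 45.0% of all genes were called. The 4 with the smallest p were Stip1, Fkbp4 and Ptges3, which encode the co-chaperones HOP, FKBP52 and p23 of the receptor's chaperone complex, and Ipo13, an importin. Stip1, the HOP gene, had its lowest mean at ZT8 (96.1 CPM) and its highest at ZT16 (124.5 CPM) in the WT label. In the KO label its mean was lowest at ZT8 (92.1 CPM) and highest at ZT20 (122.2 CPM), with 105.8 CPM at ZT16. Its 24 h peaks were at ZT20.5 and ZT21.3 (WT and KO label). Fkbp4 peaked at ZT20.0 and ZT19.6, and Ptges3 at ZT18.6 in the WT label. These co-chaperone genes peaked later than the members Fkbp5 and Tsc22d3. The KO-label wave of Ptges3 was not called. Ipo13 peaked at ZT14.6 in the WT label, where its wave was not called, and at ZT13.4 in the KO label, before Fkbp5 in both. The genes for the enzymes that activate and inactivate corticosterone were scarce, Hsd11b1 at 0.787 CPM and Hsd11b2 at 0.221 CPM on average, and the mineralocorticoid receptor gene Nr3c2 stood at 3.28 CPM.

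Among 31 other glucocorticoid-induced genes tested, 20 differed between times, beside the 45.0% of all genes that did. Per1, a clock repressor with a receptor element in its promoter in mice, rose from 47.99 CPM at ZT4 to 294 CPM at ZT12 in the WT label and from 63.5 to 245 CPM in the KO label (adjusted p for time 1.26e-08 by edgeR). Glul, glutamine synthetase, went from 102 CPM at ZT0 to 328 CPM at ZT12 in the WT label and from 108 CPM at ZT0 to 326 CPM at ZT16 in the KO label. Ddit4, an inhibitor of mTORC1, peaked at ZT10.5 and ZT13.5. Zfp36, which encodes the mRNA-destabilising protein TTP, dipped at ZT4 (731 CPM) and ZT16 (674 CPM) in the WT label, at the times at which Dusp1 was low.

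Of 13 tested cytokine and enzyme genes that glucocorticoids are known to repress, 8 differed between times (45.0% of all genes did). Il33, an alarmin of keratinocytes, averaged 144 CPM at ZT4 and 67.2 CPM at ZT12 in the WT label and 116 and 63.8 CPM in the KO label, with fitted peaks at ZT1.41 and ZT0.585. Ccl20, a chemokine, peaked at ZT0.851 and ZT23.8 at a low level (1.32 CPM on average), while Ptgs2, the inducible cyclooxygenase, was low at ZT4 and ZT16 (8.72 and 10.9 CPM in the WT label) and Il6 was nearly absent at 0.0902 CPM. Of 7 further genes of metal handling, 3 differed between times, a share near the 45.0% of all genes: Slc40a1 (ferroportin), Mtf1 (the metal-sensing factor that drives metallothionein genes) and Slc39a10 (a zinc importer). In the averaged comparison of the labels, 0 genes of these 4 lists were called, and their median log2 fold changes were -0.0043 (receptor machinery), 0.05 (other induced genes), 0.10 (repressed genes) and 0.02 (metal handling), beside -0.0016 over all genes tested and 0.09 over the 9 members.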

How the data were processed

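The deposited values are raw counts per Entrez gene ID, 1 column per library, as the authors left them and with no normalization. The submitters' processing notes name Trim Galore, STAR 2.7.10a, featureCounts and mm10/GRCm38; settings, gene annotation and use of strand were not given in the sources used here. Per the labels' protocols, the libraries were stranded poly(A) TruSeq. Genes were filtered with filterByExpr over the 12 groups (17068 kept), scaled by TMM (factors 0.919 to 1.07) and fitted with edgeR 4.0.16 (glmQLFit with robust estimation, R 4.3.3) on all 48 libraries, as 12 group means or as cosine and sine terms of 24 h within each label. Benjamini-Hochberg adjustment covered all genes tested, and an adjusted p under 0.05 was called. limma 3.58.1, DESeq2 1.42.0 and sva 3.50.0 served as alternatives. The procedure was tested on simulated data.

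Levels are CPM; log2 CPM used a prior count of 2. No 2 libraries of a group were duplicates. Replicate numbers did not pair libraries across groups. p-values measure the spread between these libraries. The members, the pathway and marker lists and the genes named from them (up to 4 of each list by p for time, the 2 genes most alike to each member) were chosen with earlier results of these data known. Libraries over 100 CPM of Xist formed 1 type and the rest the other. Gene positions and promoter windows (250 bases before to 50 after a start) are RefSeq's on GRCm38.p6. Windows of 7 of 9 members were searched as members' windows. Nr3c1 was left out by choice, and no window was found for Zbtb16. Exon lengths are from GENCODE. Annotated transcripts of other genes resemble Tsc22d3 (Gm8812, 89.8% over 420 bases), Sgk1 (Gm11025, 87.0% over 462) and Fkbp5 (Gm49165, 85.5% over 235), so a few of their reads may be shared.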

Additional observations from a re-analysis of the deposited data

Results flagged for a closer look

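In 6 of 108 combinations of member and group, 1 library lay far from the other 3 of its group (Dixon's ratio above its critical value), and chance flags about 1 in 20 such groups. Replicate 2 of the KO label at ZT0 accounted for 3 of them, with 29.2 CPM of Fkbp5 against 16.6 to 18.0 CPM in the others, 109 CPM of Tsc22d3 against 69.8 to 74.6 CPM, and 72.7 CPM of Klf9 against 40.7 to 41.8 CPM. It is the 1 library of its group that expresses Xist. Replicate 4 of the WT label at ZT0 held 107 CPM of Tsc22d3 against 59.9 to 63.9 CPM. Replicate 2 of the KO label at ZT16 held 90.0 CPM of Fkbp5 against 59.4 to 63.2 CPM, and replicate 1 of the WT label at ZT8 held 171 CPM of Nr3c1 against 152 to 154 CPM.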

How the results depend on the processing

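The counts of called members (0 of 9 for the averaged label difference, 0 of 54 at single times, 0 for its change over time, 8 for time, 5 and 5 for the 24 h wave, 0 for the difference in waves) were the same under RLE scaling, DESeq2, limma-voom, no filter, a filter of 1 CPM in 24 libraries, sex-linked terms, 2 surrogate variables, a fibroblast and dermis covariate, and without the 3 libraries labelled WT that held Gm5481, except that DESeq2 called 6 waves in the WT label, adding Mt1 (adjusted p = 0.0483). The replicate block left them at 0, 0, 0, 8, 5, 5 and 0 too; the numbers do not pair libraries (mean correlation of deviations 0.0215 for the same number against -0.00738 for others). With 6 time means in place of 1 wave, 8 members were called in the WT label and 8 in the KO label. Leaving out 1 library in turn gave 5 to 6 members with a wave in each label and 5 to 11 related pairs. The Xist comparison called 1 member within the WT label alone and 4 with any 1 library left out.

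Signs of label differences that were not called changed as follows. With sex-linked terms the log2 fold change was -0.0345 for Sgk1, 0.0407 for Klf9 and -0.0862 for Dusp1, and with 2 surrogate variables -0.00567, 0.0362 and -0.0417. The fibroblast covariate gave 0.00855 for Klf9. Leaving out 1 library gave -0.0700 to 0.0919 for Fkbp5, -0.00881 to 0.0290 for Sgk1 and -0.0570 to 0.0186 for Klf9. Zbtb16 differed by -0.0227 between Xist types in the KO label alone. The cause was not tested. At 4 libraries a group, a label difference at 1 time had an SE of 0.35 for Fkbp5 and 0.06 for Nr3c1 on the log2 scale; each member had 480 counts or more in every library.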
